A study of Mus musculus with 10 samples.

Results

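Genes of the proteasome were measured in the livers of mice that all carried a liver-specific Pparg knockout, 5 libraries from mice given vehicle and 5 from mice given a phthalate. Members were the rows whose symbol starts with Psma, Psmb, Psmc, Psmd or Psme followed by a number, which gave 45 rows of 16874. Of these, 41 reached 0.5 FPKM in at least 5 of the 10 libraries and were tested, among 11242 genes tested in all. Every one of the 41 was above 0.5 FPKM in all 10 libraries, so none was tested only because of its level in 1 group.

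The mice were C57BL/6 males carrying the knockout in the control group as in the treated one. The CMC group received 0.5% CMC (carboxymethyl cellulose, a vehicle) by gavage, and the DEHP group received 2500 mg/kg body weight of DEHP, di(2-ethylhexyl) phthalate, a plasticizer. The labels give 12 mice per group but tie no library to a mouse, so the spread between the 5 libraries of a group, and every p-value below, may be biological or technical. The driver of the knockout, the age of the mice and the length of treatment are not given in the sources used here, and livers with intact Pparg were not analysed here.

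The proteasome is the large protease that degrades proteins tagged with ubiquitin. Its 20S core is a barrel with alpha subunits in the outer rings and beta subunits in the inner rings, where Psmb5, Psmb6 and Psmb7 carry the cutting sites, and its regulatory cap has a base of ATPases that unfold substrates and a lid that removes ubiquitin. Cells exposed to interferon can swap in Psmb8 for Psmb5, Psmb9 for Psmb6 and Psmb10 for Psmb7 and add the Psme1 and Psme2 activator, which changes the peptides available for display on MHC class I. In cells treated with proteasome inhibitors, the transcription factor Nfe2l1 is known to raise many subunit genes together.

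Promoter windows are shown for 4 genes, since Psmb5 and Psme1 had the largest log2 fold changes among called members and Psmb8 and Psmb9 are the interferon-inducible partners that the results set against the constitutive subunits. Each runs from 250 bases before to 50 bases after the start of transcription, 5′ to 3′ on the gene's strand, from RefSeq on GRCm38.p6. The windows are Psmb5 at chr14:54617946-54618245 (- strand), Psmb8 at chr17:34197945-34198244 (+ strand), Psmb9 at chr17:34187281-34187580 (- strand) and Psme1 at chr14:55578244-55578543 (+ strand). Capitals mark a match to TGACNNNGC in Psmb5 (ARE, the motif bound by Nfe2l1 and Nfe2l2), TTCNNNGAA in Psmb8 (GAS, an interferon gamma activated site), CCAAT read on the other strand in Psmb9, and the ISRE, an interferon response element searched as GAAA, any 2 bases and GAAA, read on the other strand in Psme1.
Psmb5: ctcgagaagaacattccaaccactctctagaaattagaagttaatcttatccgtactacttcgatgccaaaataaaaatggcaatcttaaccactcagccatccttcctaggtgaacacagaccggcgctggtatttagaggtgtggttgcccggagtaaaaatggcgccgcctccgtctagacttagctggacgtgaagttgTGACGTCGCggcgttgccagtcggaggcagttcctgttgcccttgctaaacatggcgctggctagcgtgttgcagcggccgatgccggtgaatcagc
Psmb8: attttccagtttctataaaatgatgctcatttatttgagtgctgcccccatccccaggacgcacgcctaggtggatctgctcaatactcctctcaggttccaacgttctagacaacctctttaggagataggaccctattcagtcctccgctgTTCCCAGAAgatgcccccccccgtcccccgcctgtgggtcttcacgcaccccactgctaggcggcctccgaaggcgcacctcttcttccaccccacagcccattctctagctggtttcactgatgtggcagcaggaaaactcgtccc
Psmb9: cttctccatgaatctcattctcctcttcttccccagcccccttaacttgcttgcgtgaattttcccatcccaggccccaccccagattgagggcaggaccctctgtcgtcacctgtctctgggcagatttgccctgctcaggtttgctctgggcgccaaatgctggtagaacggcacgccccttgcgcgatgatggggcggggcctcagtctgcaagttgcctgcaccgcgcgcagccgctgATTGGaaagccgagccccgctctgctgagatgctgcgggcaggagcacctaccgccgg
Psme1: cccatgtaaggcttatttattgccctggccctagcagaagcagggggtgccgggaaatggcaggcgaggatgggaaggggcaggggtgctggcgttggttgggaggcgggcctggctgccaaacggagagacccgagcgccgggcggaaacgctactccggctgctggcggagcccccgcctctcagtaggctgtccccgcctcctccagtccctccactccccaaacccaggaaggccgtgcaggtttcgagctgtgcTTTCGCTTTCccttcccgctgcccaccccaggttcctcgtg

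A window was held for 35 of the 41 tested members, and Psmb1, Psmb2, Psmb7, Psmc3, Psmd3 and Psmd7 had none. Both strands were searched, and the background is the share of 27025 genes, whether tested here or not, with at least 1 matching window. The ARE letters were in 6 of 35 member genes (17.1%) against 14.0% of all genes, namely Psmb5, Psmb6, Psmc6, Psmd12, Psmd9 and Psme4. Of the 19 members with a window that were called higher, 3 held it, as did 3 of the 16 that were not called. The ISRE letters were in 4 of 35 (11.4%) against 3.99% of all genes. The carriers Psmb3, Psmd4, Psmd9 and Psme1 were 4 of the 19 called members and 0 of the 16 not called, a split that was not tested. The GAS letters were in Psmb8 and Psmd2, 5.71% of members against 9.55% of genes. The CCAAT letters were in 13 members, 37.1% against 41.1% of genes, and the AP1 letters TGANTCA were in Psmb5 and Psmd9, 5.71% against 8.97%. No ARE match in a member window overlapped an AP1 match. Such an overlap was rare, in 149 of 32851 windows of the whole table, so its absence among 35 members is not read as a lack. A match of letters describes the window and is not a binding site.

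Of the 45 rows, 4 stayed below the filter. Psma8, the testis form of an alpha subunit, ran from 0 to 1.02 FPKM over all libraries, and Psmb11, the form of thymus cortex, was listed at 0 in 9 libraries and at 0.13 in CMC library 5. Psme2b, a near-identical copy of Psme2, ran from 0 to 0.53 FPKM. Psmc3ip, a recombination factor that shares only the first letters of its name with the ATPases, ran from 0 to 0.64 FPKM. These rows gave no fold change.

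Most genes of the core and base were higher after DEHP, as were 4 of 8 of the lid, 1 of 5 immune genes and 2 of 5 others. Of 41 tested members, 24 were higher and 0 lower in limma on log2(FPKM + 0.5) with p-values adjusted over all 11242 genes at a threshold of 0.05. Over all tested genes, 9.12% were called higher and 2.4% lower, so the members' 58.5% stood above the share of genes called higher. At an unadjusted p under 0.05, 33 members had a positive fold change and 0 a negative one, against 18.6% and 6.59% of all tested genes. The calls over all genes, 1025 higher and 270 lower, became 639 and 445 after median-of-ratios scaling and 611 and 546 after quantile normalization. Groups that did not overlap, every DEHP library above every CMC library, were found for 24 members against 8.56% of all tested genes, and groups lying apart the other way for 0 members against 2.14%. These are not identical sets of 24: Psmb2 and Psmd3 were called while their groups overlapped, and Psmb6 and Psmd7 lay apart without being called. Among members 39 fold changes were positive and 2 negative, with a median of 0.31 on the log2 scale against 0.06 for all tested genes, of which 59.5% were positive. After median-of-ratios scaling 38 members were positive, with a median of 0.23 against -0.01 for all genes, and after quantile normalization 36, with 0.16 against -0.02. The count of 24 fell to 11 when libraries were rescaled by the median of ratios and to 11 under quantile normalization. It fell to 15 with a component of 17 clock genes as a covariate, and to 16 without the variance trend and robust fit. Over all genes, the 1025 higher became 615 with the clock covariate and 828 without the trend and robust fit. Under either rescaling the core, base and lid counts were 5, 2 and 1. Those 11 were one set under both scalings and were called under all 22 alternatives run: Psma5, Psma7, Psmb3, Psmb4, Psmb5, Psmc3, Psmd4, Psmd13, Psmd5, Psmd9 and Psme1.

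**Figure D1:**
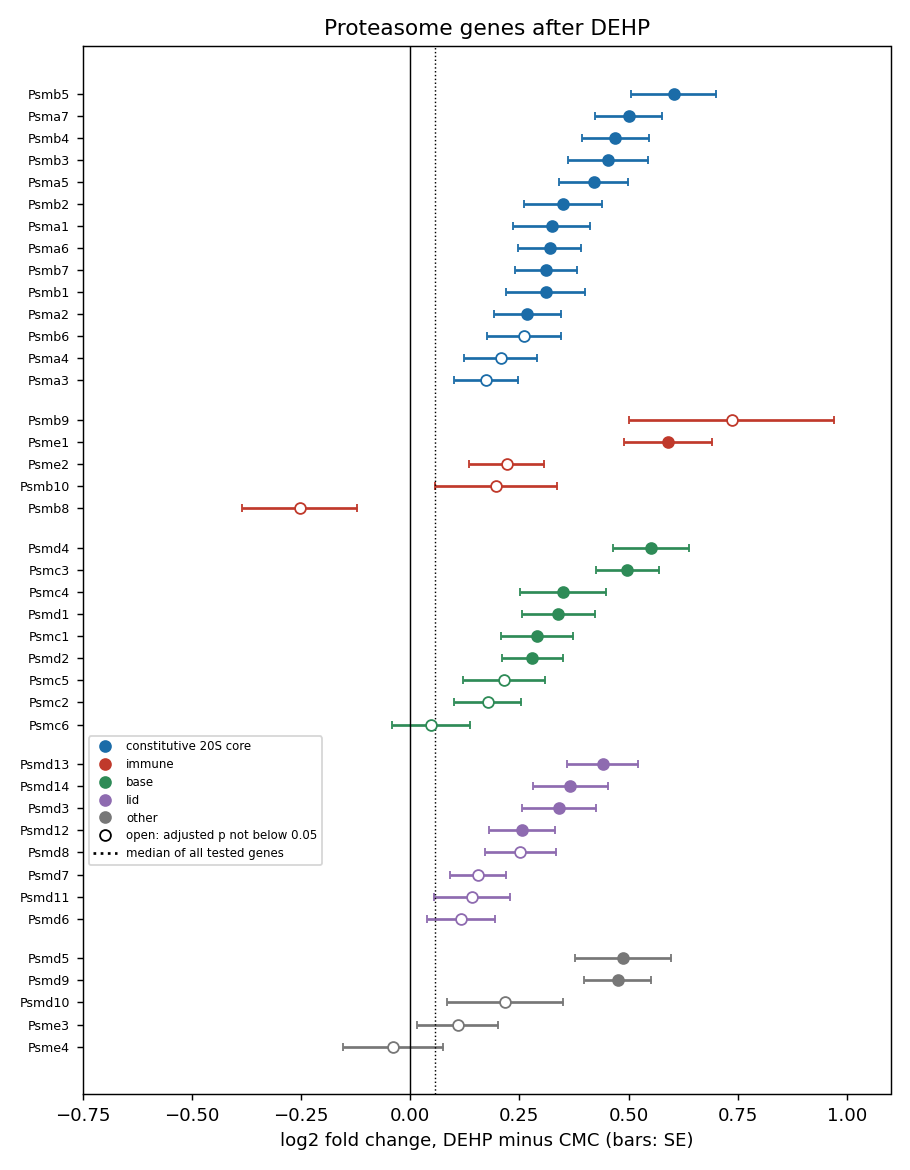
Log2 fold change of each tested proteasome gene, DEHP minus CMC on log2(FPKM + 0.5), with bars for the standard error, 5 libraries per group; filled points passed the limma threshold, and the dotted line is the median of all tested genes, 0.06. The core and base genes lie to the right of zero from 0.05 to 0.60, while the immune genes spread from -0.25 to 0.74. Psmc6 crosses zero to -0.0275 under median-of-ratios scaling and to -0.0796 under quantile normalization.

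In the plot of fold changes by class, the core genes ran from 0.17 to 0.60 and the immune genes from -0.25 to 0.74. Summed over its members, the constitutive core went from 1639 ± 53.8 FPKM (SD, n = 5) with CMC to 2136 ± 163 FPKM (SD, n = 5) with DEHP, 1.30 times. The base went from 551 ± 14.6 to 699 ± 58.0 FPKM (1.27 times), the lid from 412 ± 10.6 to 494 ± 27.0 FPKM (1.20 times), the immune genes from 302 ± 22.1 to 388 ± 59.7 FPKM (1.28 times) and the others from 70.3 ± 3.23 to 85.3 ± 2.28 FPKM (1.21 times). These sums were not tested. In the core, base, lid and other classes every DEHP library lay above every CMC library, and in the immune class CMC library 5 at 337.7 FPKM lay just above DEHP library 4 at 335.7 FPKM. All members together held 0.416% ± 0.0114 of summed FPKM with CMC and 0.533% ± 0.0427 with DEHP.

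**Figure D2:**
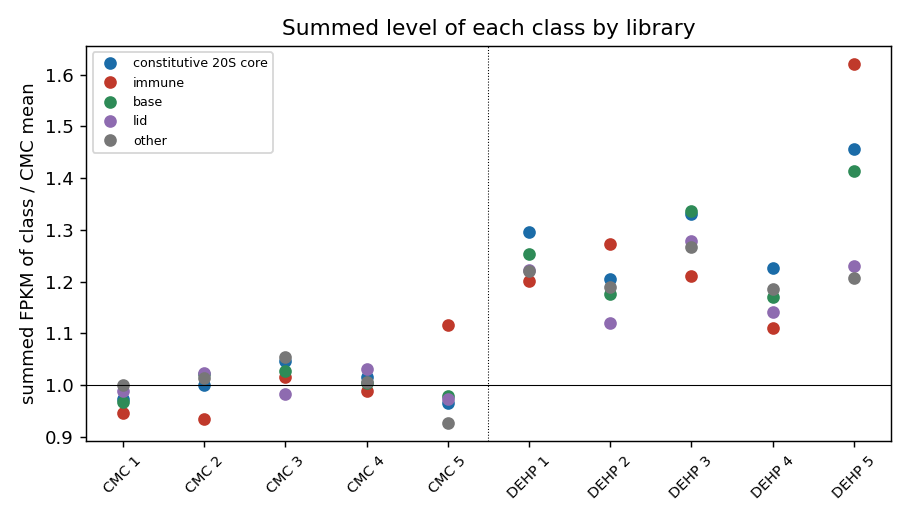
Summed FPKM of each class in each library, divided by that class's CMC mean, so that 1.0 is the vehicle average. DEHP library 5 is highest for the immune (1.62), core (1.46) and base (1.41) sums, and DEHP library 3 is highest for the lid (1.28) and other (1.27) sums.

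Libraries differed within the DEHP group. DEHP library 5 was the highest of its group for 22 of 41 members and the lowest for 5. Its deviation from the other DEHP libraries rose with the GC content of the transcript, with r = 0.73 across the 41 members and 0.35 across all tested genes. With log2 transcript length the members' r was -0.47. In the other DEHP libraries the members' r with GC content ran from -0.56 in library 4 to -0.07 in library 2. These values are descriptions over genes that share a library. Without DEHP library 5, 20 members were called, all among the 24. After a correction for GC content and length, chosen after the data were seen, 26 were called, all 24 with Psma4 and Psmc6 added. Over all tested genes the correction gave 1024 higher, against 1025 in the main fit. Fits with 1 library left out, that without DEHP library 5 among them, gave 747 to 1011 higher over all genes. Without DEHP library 5 the log2 fold change was 0.52 for Psmb5, 0.49 for Psme1 and 0.19 for Psmb6, against 0.60, 0.59 and 0.26 with it. Members' fold changes had r = 0.35 with GC content, against 0.14 over all tested genes, and r = -0.27 with log2 transcript length, against -0.10. Summed FPKM per library ran from 688410 to 747577, and the depth in reads is unknown because the table holds FPKM.

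**Figure D3:**
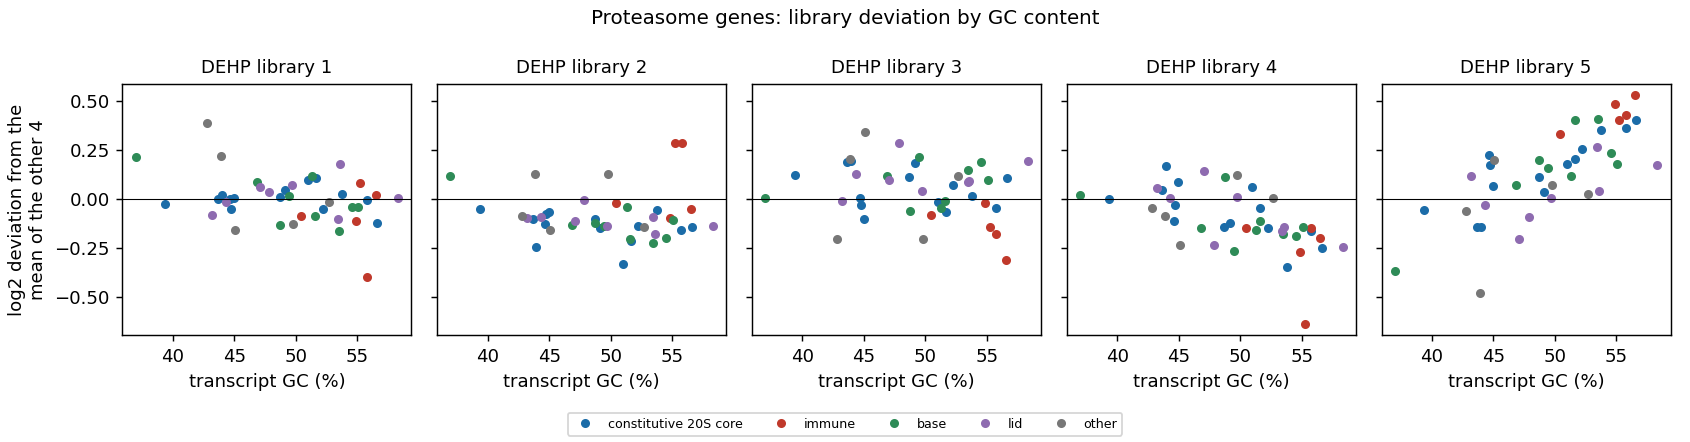
Deviation of each DEHP library from the mean of the other 4 DEHP libraries, on the log2 scale, against the GC percentage of the transcript, 1 point per tested member. In library 5 the points climb from left to right (r = 0.73), and in library 4 they fall (r = -0.56). The deviations of a gene over the 5 libraries sum to zero, so the panels are not independent.

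Levels of other cell types' markers were read beside these counts. Of 11 white blood cell markers, 5 were tested and 0 were called by limma, with 0 at an unadjusted p under 0.05, and their summed level ran from 71.3 to 96.3 FPKM with CMC and from 81.8 to 91.0 FPKM with DEHP. The natural killer cell gene Ncr1 was listed at 0 in every library but CMC 1, at 0.10 FPKM. The T cell genes Cd3e and Cd3d were below the filter and not tested. Cd3e ran from 0 to 0.31 FPKM with CMC and from 0.20 to 0.51 FPKM with DEHP. Cd3d ran from 0 to 0.45 FPKM with CMC and from 0 to 0.99 FPKM with DEHP. Of 5 hepatocyte markers, Alb, Apoa1 and Ttr were lower and Cyp2e1 higher, and their sum ran from 53901 to 69018 FPKM with CMC and from 40542 to 48005 FPKM with DEHP. Of the 7 tested markers of endothelium, stellate cells and bile duct, 0 were called by limma, and 0 passed at an unadjusted p under 0.05. In whole liver, fewer cells of a type and less RNA per cell cannot be told apart. FPKM is a share of the library, so the part of the lower hepatocyte markers in the proteasome counts was not tested beyond the rescaling above. Pparg itself read 2.40 to 5.90 FPKM with CMC and 5.50 to 9.40 FPKM with DEHP, and it was called higher (log2 fold change 0.89, SE 0.21, limma adjusted p = 0.0118), with overlapping groups. A gene-level value does not check a deletion of part of the gene.

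In the constitutive core, 11 of 14 genes were higher, 5 of 7 in the alpha ring and 6 of 7 in the beta ring, with a median log2 fold change of 0.32 and none below zero. The catalytic beta subunit Psmb5, which carries the chymotrypsin-like site, had the largest fold change of the core. It measured 147, 139.6, 139.5, 147.9 and 122.1 FPKM over CMC libraries 1 to 5 against 197.5, 195.4, 224.2, 183.9 and 264.4 FPKM over DEHP libraries 1 to 5. No value of the groups overlapped, and the mean went from 139 ± 10.3 to 213 ± 32.3 FPKM (log2 fold change 0.60, SE 0.10, limma adjusted p = 0.00122). Psma7, an alpha ring subunit, measured 119.5, 130.3, 136.4, 130.8 and 125.7 FPKM in the CMC libraries and 193.6, 161.7, 175.7, 177.5 and 204.2 FPKM in the DEHP libraries, in the same order. The groups lay apart (log2 fold change 0.50, SE 0.08, limma adjusted p = 0.000779). Psmb4, a beta ring subunit without a cutting site and the most abundant member, measured 219.3, 210.3, 225.1, 226.8 and 203.1 FPKM with CMC and 292.6, 278.4, 312.5, 276.6 and 346.6 FPKM with DEHP. All DEHP values were above all CMC values (log2 fold change 0.47, SE 0.08, limma adjusted p = 0.00123).

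The genes of the other catalytic sites had smaller fold changes, a difference between genes that was not tested. Psmb7, with the trypsin-like site, measured 167.7, 159.8, 182.5, 158.7 and 161.5 FPKM in the CMC libraries and 207.2, 194.6, 219.3, 190.2 and 219.4 FPKM in the DEHP libraries, with no overlap (log2 fold change 0.31, SE 0.07, limma adjusted p = 0.0111). Psmb6, with the caspase-like site, measured 160.7, 154.5, 154.2, 144.8 and 157.7 FPKM with CMC and 184.5, 169.7, 180.3, 168.98 and 226.5 FPKM with DEHP. The groups of Psmb6 lay apart, but it missed the threshold (log2 fold change 0.26, SE 0.08, limma adjusted p = 0.0612). DEHP library 5 stood highest for Psmb5 and Psmb6, and shared the top with library 3 for Psmb7. The call of Psmb7 ended under both rescalings, at 0.23 by the median of ratios (limma adjusted p = 0.079) and 0.15 by quantile normalization (0.162).

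**Figure D4:**
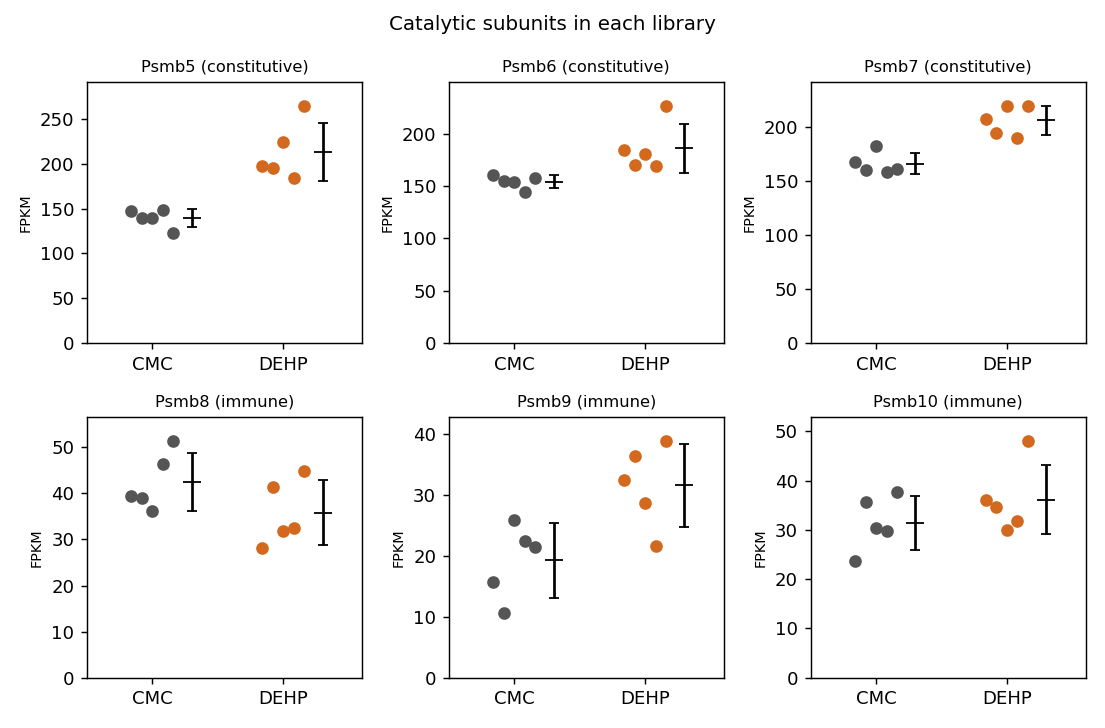
FPKM of the 3 constitutive catalytic subunits (top) and their immune counterparts (bottom) in each of 5 CMC and 5 DEHP libraries, with bars for the mean and SD. Psmb5 runs from 122.1 to 147.9 FPKM with CMC and from 183.9 to 264.4 FPKM with DEHP, whereas the 2 groups overlap for Psmb8, Psmb9 and Psmb10.

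Among the rest of the core, Psma5 and Psmb3 were higher under every alternative, with log2 fold changes of 0.42 and 0.45. Psma6 was higher by 0.32, a call that ended under both rescalings and with the clock covariate. Psma1 (0.32), Psma2 (0.27), Psmb1 (0.31) and Psmb2 (0.35) were higher with limma adjusted p of 0.0277, 0.0371, 0.0396 and 0.0198. Each of these calls ended in some fits with 1 library left out. In such fits the higher calls over all genes also fell, from 1025 to between 747 and 1011. The call of Psma1 ended without CMC 1, CMC 5, DEHP 1, DEHP 3 or DEHP 4, with adjusted p up to 0.0777. Psma2 lost its call without CMC 1, CMC 3, CMC 4, CMC 5, DEHP 1, DEHP 2, DEHP 3 or DEHP 4 (up to 0.0944), Psmb1 without CMC 2, CMC 4, CMC 5, DEHP 1, DEHP 3 or DEHP 5 (up to 0.0893) and Psmb2 without CMC 1 or DEHP 1 (up to 0.0548). Without DEHP 1 the core count was 7. Psma3 (0.17) and Psma4 (0.21) did not pass. RefSeq lists pseudogene copies of Psma5, Psmb5, Psmb6 and Psmb7, so reads of these genes could be split upstream and their levels are uncertain to that extent.

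Of the interferon-inducible genes, 1 of 5 was called, against 9.12% of all tested genes called higher. At an unadjusted limma p under 0.05, 3 of the 5 had a positive fold change and 0 a negative one. All tested genes had 18.6% and 6.59% at that threshold. The gene called was the activator subunit Psme1. It lies at chr14:55578494-55581527 and measured 110.3, 106.1, 110.7, 112.8 and 124.1 FPKM over CMC libraries 1 to 5 against 159.9, 161.2, 168.1, 146.4 and 223 FPKM over DEHP libraries 1 to 5. The groups lay apart, with a mean going from 113 ± 6.78 to 172 ± 29.7 FPKM (log2 fold change 0.59, SE 0.10, limma adjusted p = 0.00176). Psme2, its partner in the activator ring, lies at chr14:55587440-55591101 with its end facing that of Psme1 across 5913 bases. It measured 96.6, 90.9, 103.7, 87.3 and 102.8 FPKM with CMC and 106.7, 110.8, 107.1, 103.2 and 135.03 FPKM with DEHP, and the groups met at CMC 3 and DEHP 4 (log2 fold change 0.22, SE 0.09, limma adjusted p = 0.123). The ratio of Psme1 to Psme2 was 1.18 ± 0.0833 with CMC and 1.52 ± 0.0932 with DEHP, with no overlap. This pair was chosen after its values were seen and was given no test.

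None of the immune catalytic subunits was called. Psmb8, at chr17:34198195-34201454, measured 39.4, 38.9, 36.2, 46.5 and 51.4 FPKM over CMC libraries 1 to 5 against 28.2, 41.4, 31.9, 32.5 and 44.97 FPKM over DEHP libraries 1 to 5. Its groups overlapped and its fold change was negative (log2 fold change -0.25, SE 0.13, limma adjusted p = 0.255, 95% interval -0.54 to 0.03), but with the clock component as a covariate it was called lower, at -0.49 with adjusted p = 0.0233. Psmb9, at chr17:34182030-34187330, measured 15.8, 10.6, 26, 22.5 and 21.5 FPKM with CMC and 32.5, 36.4, 28.7, 21.6 and 38.95 FPKM with DEHP. It had the largest fold change of any member and the widest error and did not pass (log2 fold change 0.74, SE 0.23, limma adjusted p = 0.0684, 95% interval 0.22 to 1.25), while it was called without CMC 3 or without DEHP 4, with adjusted p from 0.0351 to 0.145 over the libraries left out. Psmb10, at chr8:105935728-105938392, measured 23.7, 35.7, 30.4, 29.7 and 37.7 FPKM with CMC and 36.1, 34.7, 30.01, 31.9 and 48.1 FPKM with DEHP, with overlapping groups (log2 fold change 0.20, SE 0.14, limma adjusted p = 0.418, 95% interval -0.10 to 0.50).

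Psmb9 and Psmb8 are neighbours in the MHC region of chromosome 17, on either side of the peptide transporter gene Tap1. The starts of Psmb9 and Tap1 are 226 bases apart in opposite directions, so that their windows share 275 bases, and 970 bases separate the end of Tap1 from the start of Psmb8. Tap1 measured 7.20, 6.32, 8.60, 7.61 and 7.12 FPKM with CMC and 10.7, 9.01, 7.92, 10.2 and 12.4 FPKM with DEHP. Its groups overlapped and it was called (log2 fold change 0.41, SE 0.12, limma adjusted p = 0.0454), a call that ended without any 1 of 8 libraries (CMC 1, CMC 2, CMC 4, CMC 5, DEHP 1, DEHP 2, DEHP 4, DEHP 5), with adjusted p up to 0.102.

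Each immune catalytic subunit was set against the constitutive one it replaces. Psmb8 over Psmb5 was 0.268, 0.279, 0.260, 0.314 and 0.421 in CMC libraries 1 to 5 and 0.143, 0.212, 0.142, 0.177 and 0.17 in DEHP libraries 1 to 5. The groups did not overlap, and the ratio was lower after DEHP, from 0.308 ± 0.0663 to 0.169 ± 0.0288, a log2 difference of -0.86 (two-sided exact permutation p = 0.00794, the smallest that 5 against 5 allow, 0.0238 adjusted over 3 pairs). Psmb9 over Psmb6 was 0.125 ± 0.0415 with CMC and 0.17 ± 0.0313 with DEHP, with overlapping groups (log2 difference 0.49, exact permutation p = 0.103, adjusted 0.155). Psmb10 over Psmb7 was 0.190 ± 0.0385 and 0.175 ± 0.0295 (log2 difference -0.11, exact permutation p = 0.476, adjusted 0.476). The transcripts of Psmb8 and Psmb5 have a GC content of 55.8% and 56.6%. Of the genes in the first ratio, Psmb5 was called higher and Psmb8 read lower without a call. FPKM is per length, so these ratios compare levels between genes, and a ratio within a library does not move with that library's scaling.

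**Figure D5:**
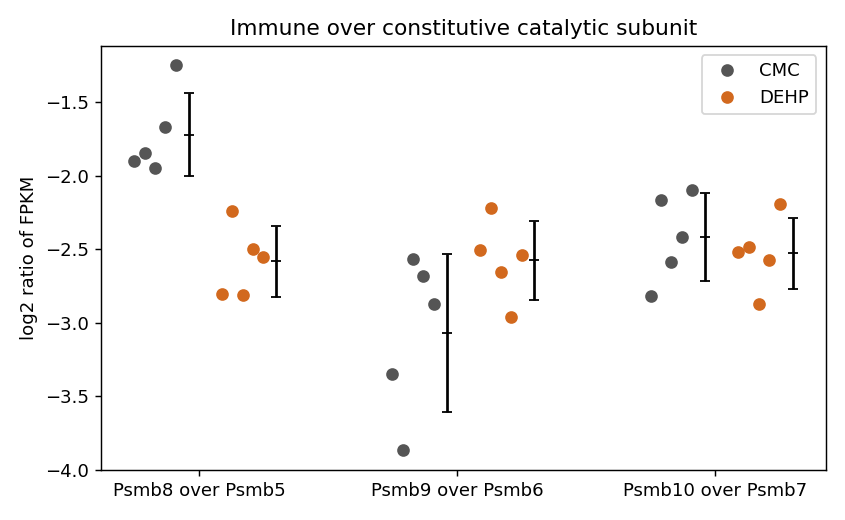
Log2 ratio of FPKM of each immune catalytic subunit to the constitutive subunit it replaces, in each of 5 CMC and 5 DEHP libraries, with bars for the mean and SD. The DEHP points of Psmb8 over Psmb5 all lie below the CMC points (means -2.58 and -1.72), and the points of the other pairs overlap.

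In the base, 6 of 9 genes were higher, 3 of the 6 ATPases among them, with a median log2 fold change of 0.29. Psmc3, an ATPase, measured 69.1, 73.2, 74.3, 71.1 and 68.2 FPKM over CMC libraries 1 to 5 against 98.5, 94.98, 106.4, 92.98 and 111.3 FPKM over DEHP libraries 1 to 5. The groups lay apart, and this was the smallest p of any member (mean from 71.2 ± 2.60 to 101 ± 7.78 FPKM; log2 fold change 0.50, SE 0.07, limma adjusted p = 0.000498). Psmd4, a receptor for ubiquitin chains, measured 77.5, 86.3, 92.4, 88.8 and 84.7 FPKM with CMC and 123.2, 112.7, 139.9, 113.3 and 143.8 FPKM with DEHP. There was no overlap (log2 fold change 0.55, SE 0.09, limma adjusted p = 0.000969). Psmd1, a large scaffold, measured 29.7, 34.5, 34.6, 32.5 and 37.9 FPKM with CMC and 44.97, 39.7, 45.7, 39.5 and 44.6 FPKM with DEHP, again without overlap (log2 fold change 0.34, SE 0.08, limma adjusted p = 0.0158). The call of Psmd1 ended under both rescalings and with the clock covariate.

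The ATPases Psmc1 (0.29, adjusted p = 0.0351 in limma) and Psmc4 (0.35, 0.0337) and the scaffold Psmd2 (0.28, 0.0173) were also higher. The call of Psmc1 ended without CMC 1, CMC 3, CMC 4, CMC 5, DEHP 1, DEHP 3 or DEHP 5 (adjusted p up to 0.0942), that of Psmc4 without CMC 1, CMC 2, CMC 4, CMC 5, DEHP 3 or DEHP 5 (up to 0.086) and that of Psmd2 without DEHP 1 (0.0559). The ATPases Psmc2 (0.18), Psmc5 (0.22) and Psmc6 (0.05) did not pass, and Psmc6 ran from 35.8 to 40.7 FPKM with CMC and from 32.7 to 45.2 FPKM with DEHP. Psmc6 turned negative under both rescalings, at -0.0275 by the median of ratios and -0.0796 by quantile normalization.

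In the lid, 4 of 8 genes were higher, with a median log2 fold change of 0.25. Psmd13 measured 47.1, 45.3, 46.9, 50.6 and 42.95 FPKM over CMC libraries 1 to 5 against 59.8, 60.1, 66.5, 57.9 and 73.5 FPKM over DEHP libraries 1 to 5. Every DEHP value was above every CMC value (log2 fold change 0.44, SE 0.08, limma adjusted p = 0.00308). Psmd14, the enzyme that removes ubiquitin chains from substrates, measured 26.8, 22.8, 29.2, 26.1 and 29.9 FPKM with CMC and 33.2, 32.96, 34.6, 35.9 and 37.2 FPKM with DEHP. It too showed no overlap (log2 fold change 0.37, SE 0.09, limma adjusted p = 0.012), but its call ended under both rescalings and with the clock covariate. Psmd3, a structural subunit, measured 72.5, 63.8, 63.4, 60.2 and 66.2 FPKM with CMC and 82.9, 76.6, 92.05, 72.2 and 91.1 FPKM with DEHP, and CMC 1 lay just above DEHP 4 (log2 fold change 0.34, SE 0.08, limma adjusted p = 0.0175). The Psmd3 call ended without CMC 4 or DEHP 3, with adjusted p up to 0.0525, and under both rescalings.

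Psmd12, another structural subunit, was higher by 0.26 with limma adjusted p = 0.0411, a call that ended without CMC 1, CMC 3, CMC 4, CMC 5, DEHP 1, DEHP 3, DEHP 4 or DEHP 5 (up to 0.102). The lid count was 2 without CMC 4 or without DEHP 3. Psmd6 (0.12, and -0.0058 under quantile normalization), Psmd8 (0.25) and Psmd11 (0.14) did not pass, though Psmd8 was called without DEHP 2. Psmd7, the partner of Psmd14, ran from 51.2 to 52.2 FPKM with CMC and from 53.5 to 60.1 FPKM with DEHP, apart but by only 0.15 on the log2 scale, and did not pass (log2 fold change 0.15, SE 0.06, limma adjusted p = 0.145).

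Outside the particle's core, base and lid, 2 of 5 tested genes were higher. Psmd9, a chaperone for assembly of the base, measured 17.6, 18.1, 19.4, 17.3 and 17.02 FPKM over CMC libraries 1 to 5 against 24.8, 23.1, 26.8, 25.1 and 25.4 FPKM over DEHP libraries 1 to 5. The groups lay apart (log2 fold change 0.48, SE 0.08, limma adjusted p = 0.00114). Psmd5, another base chaperone, measured 11.5, 13.9, 12.6, 14.02 and 11.5 FPKM with CMC and 16.4, 16.4, 21.8, 15.7 and 20.1 FPKM with DEHP. It did not overlap either (log2 fold change 0.49, SE 0.11, limma adjusted p = 0.0098). Psmd10, the third base chaperone, measured 9.79, 8.53, 6.16, 7.03 and 7.01 FPKM with CMC and 11.2, 8.48, 7.92, 8.70 and 8.62 FPKM with DEHP, overlapping, and did not pass (log2 fold change 0.22, SE 0.13, limma adjusted p = 0.336). The alternative activators did not pass. Psme3 ran from 17.1 to 22.1 FPKM with CMC and from 17.99 to 21.7 FPKM with DEHP (log2 fold change 0.11, 95% interval -0.09 to 0.31, and -0.0042 under quantile normalization), and Psme4 ran from 11.8 to 14.2 FPKM with CMC and from 9.72 to 14.6 FPKM with DEHP (-0.04, -0.28 to 0.20, and 0.0558 without DEHP 5).

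Genes that assemble, occupy, feed or regulate the proteasome were read beside the subunits. Of 26 such genes, 7 were higher and 0 lower in limma (12 and 0 at an unadjusted p under 0.05), 26.9% higher against 9.12% of all tested genes, with a median log2 fold change of 0.18. At the unadjusted threshold the share of all tested genes was 18.6% higher. The count of 7 fell to 2 (Psmg3 and Psmf1) after median-of-ratios scaling and to 1 (Psmf1) after quantile normalization. Of all 11242 tested genes, 639 and 611 were higher under these scalings, and the related genes did not stand clearly above that share. With the clock covariate 3 were higher (Psmg3, Psmf1 and Adrm1), against 615 of all genes. Without the variance trend and robust fit 3 were higher (Psmg3, Psmf1 and Vcp), against 828 of all genes. The count was 4 without CMC 1, CMC 4, DEHP 1 or DEHP 3. Of the assembly factors, 2 of 5 were higher, the maturation factor Pomp (0.27, 0.0258) and the chaperone Psmg3 (0.50, 0.00831), and Psmg1 (0.25), Psmg2 (-0.12) and Psmg4 (0.15) did not pass. Of the partners, 2 of 6 were higher, the ubiquitin receptor Adrm1 (0.32, 0.0228) and Psmf1 (0.57, 0.00456), named for inhibiting the core in vitro. The deubiquitinases Usp14 (0.14) and Uchl5 (0.11), the small lid subunit Sem1 (0.01) and the adaptor Ecpas (0.12) did not pass. The call of Pomp ended without CMC 1, DEHP 1, DEHP 3 or DEHP 4 (adjusted p up to 0.0711), and that of Adrm1 without CMC 4, CMC 5 or DEHP 3 (up to 0.0624). Psmf1 measured 7.37, 8.98, 7.72, 8.79 and 7.07 FPKM in the CMC libraries and 12.04, 10.4, 11.2, 12.1 and 15.01 FPKM in the DEHP libraries, without overlap.

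Of 3 genes that supply or activate ubiquitin, 0 were called by limma, and 1 had an unadjusted p under 0.05, with a positive fold change, the polyubiquitin gene Ubb (0.24, adjusted p = 0.151). Ubb ran from 296.3 to 386.4 FPKM with CMC and from 363.7 to 502.2 FPKM with DEHP, with overlapping groups. Rps27a, a fusion of ubiquitin and a ribosomal protein (0.02, adjusted p = 0.954 in limma), and the activating enzyme Uba1 (0.03, 0.848) also missed the threshold.

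Of the regulators, 1 of 7 was higher, the segregase Vcp (0.29, limma adjusted p = 0.0151), which pulls ubiquitylated proteins out of membranes and complexes. Its call ended under both rescalings and with the clock covariate, and 1 of 7 is to be read against 9.12% of all tested genes. Nfe2l1 measured 30.9, 24.5, 31.4, 28.3 and 28.5 FPKM over CMC libraries 1 to 5 against 30.04, 26.3, 29.8, 26.3 and 30.7 FPKM over DEHP libraries 1 to 5. Its groups overlapped (log2 fold change -0.0026, 95% interval -0.19 to 0.19, limma adjusted p = 0.991). Nfe2l1 is controlled largely after its mRNA is made, by Vcp, the deglycosylase Ngly1 and the protease Ddi2, so this level does not report its activity. Nfe2l2, the related factor of oxidative stress, read -0.14 without a call, as did Ddi2 (0.20), Ngly1 (0.04), and the Vcp cofactors Ufd1 (0.06) and Nploc4 (0.29).

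Of 5 genes of interferon response and antigen presentation, 2 were called higher, against 9.12% of all tested genes. They were Tap1 and Tapbp, which loads peptides onto MHC class I (0.27, limma adjusted p = 0.0371). At an unadjusted limma p under 0.05, 4 of the 5 had a positive fold change and 0 a negative one. The shares of all tested genes at that threshold were 18.6% and 6.59%. The call of Tapbp ended without CMC 1, CMC 3, CMC 4, CMC 5, DEHP 1, DEHP 3 or DEHP 5 (up to 0.0939). Both calls ended under either rescaling and with the clock covariate. Irf1 (0.52, 0.0755), a transcription factor that acts on the immune subunits, missed the threshold, as did the transporter Tap2 (0.20, 0.168) and the MHC light chain B2m (-0.19, 0.21). Irf1 was called without CMC 5, with adjusted p = 0.0212.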

How the data were processed

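Liver RNA of 10 libraries, 5 CMC and 5 DEHP, was read from 1 deposited table of FPKM values, which the authors made with Cuffdiff on mm10 or GRCm38 per the submitters' processing notes; versions, the aligner and the depth are not given in the sources used here. FPKM scales fragments by transcript length and library total. The filter of 0.5 FPKM in at least 5 libraries left 11242 of 16874 rows. Values were taken as log2(FPKM + 0.5), which understates the change of low genes, and tested with limma 3.58.1 in R 4.3.3 (trend, robust; Benjamini-Hochberg over all tested genes, threshold 0.05), after a test on simulated data. Ratios used two-sided exact permutation tests. Gene IDs matched RefSeq on GRCm38.p6 for 16833 rows, and 22 date-like symbols were corrected from their gene IDs.

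Members and lists were chosen with earlier results of these data known. Values in every library were given for Psmb5 to Psmb10, Psme1, Psme2 and the 3 smallest p of the core, base, lid and other classes; the 26 related genes reported were all named, and some other genes first listed with them are not reported here. Tap1, Psmf1 and Nfe2l1 were given in full after their values were seen. Alternatives were other pseudocounts (0.1 and 1), filters, scalings and variance models, array weights, a replicate block, a clock component, a GC and length correction added after the data were seen, and libraries left out.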

Additional observations from a re-analysis of the deposited data

Results flagged for a closer look

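Across 150 groups of 5 libraries (each tested member, related gene, class sum and subunit ratio by treatment), 9 held a library set apart from the other 4 by Dixon's criterion, which chance gives in about 1 of 20 groups. In the DEHP group, library 5 was the high one for Psmb6 (226.53 FPKM, next 184.48), Psme1 (223.00 FPKM, next 168.14), Psma6 (154.14 FPKM, next 137.66), Psme2 (135.03 FPKM, next 110.84) and Psmc5 (84.23 FPKM, next 66.94), and the low one for Ngly1 (9.43 FPKM, next 12.38). DEHP library 1 was high for Psmd10 (11.20 FPKM, next 8.70). In the CMC group, library 5 was low for Psmc1 (82.55 FPKM, next 89.37) and library 2 was high for Psmc5 (65.18 FPKM, next 57.21). The transcripts of Psmb6, Psme1, Psme2 and Psmc5 have a GC content of 55.8%, 54.9%, 50.4% and 51.6%, that of Psma6 44.7%, against a median of 49.8% over the tested members. The part of GC content in these values was not tested gene by gene.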

How the results depend on the processing

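The cause of these changes was not tested. Over all genes, 1025 higher and 270 lower became 639 and 445 by median-of-ratios scaling, 611 and 546 by quantile normalization and 615 and 161 with the clock covariate, whose component averaged -1.54 ± 3.11 with CMC and 1.54 ± 1.89 with DEHP. Members higher became 11, 11 and 15, and members lower became 1 with the clock covariate. By class, the core count was 5 under either scaling and 7 without trend and robust fit, the base count 2, 2 and 3, and the lid count 1 under either scaling; with the clock covariate base and lid were 2 each. Leaving out 1 library gave 17 to 24 members higher, 7 to 10 in the core, 1 to 2 immune, 4 to 6 in the base and 2 to 5 in the lid. Over all genes the same fits gave 747 to 1011 higher and 202 to 263 lower. The Psmb8 over Psmb5 difference held its call with any 1 library left out, from -0.95 to -0.74. Without CMC 2 and DEHP 5 it was -0.90, with an exact permutation p of 0.0286, the smallest that 4 against 4 allow. Adjusted over 3 pairs that p was 0.0857.

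Small fold changes turned sign. By median of ratios these were Psmc6 (-0.0275), Rps27a (-0.0585), Sem1 (-0.0679), Uba1 (-0.0453), Ufd1 (-0.0123) and Ngly1 (-0.0348), and by quantile normalization Psmd6 (-0.0058), Psmc6 (-0.0796), Psme3 (-0.0042), Rps27a (-0.0933), Sem1 (-0.1297), Uba1 (-0.0956), Ufd1 (-0.0455) and Ngly1 (-0.0367). Psme4 became positive with array weights (0.0109), the clock covariate (0.0789), the GC and length correction (0.0682) and without CMC 2 and DEHP 5 (0.0515); Nfe2l1 with the clock covariate (0.0266). Rps27a was -0.0170 with the GC and length correction and Uba1 -0.0001 without CMC 2 and DEHP 5. Over single libraries left out, Psme4 ran from -0.0847 to 0.0558, Rps27a from -0.0698 to 0.1329, Sem1 from -0.0378 to 0.0399, Uba1 from -0.0014 to 0.0596, Nfe2l1 from -0.0574 to 0.0302 and Ngly1 from -0.0036 to 0.1228.

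Libraries of the same number did not deviate together over all tested genes (r from -0.07 to 0.05). The labels state no pairing, and such values cannot exclude one. With the replicate block 19 members were higher, all among the 24, and 3 of 26 related genes (Irf1, Psmf1 and Psmg3). Over all genes that setting gave 816 higher and 229 lower, against 1025 and 270 without it. The Psmb8 over Psmb5 difference of -0.86 then had an exact permutation p of 0.0625, the smallest 5 pairs allow. Adjusted over 3 pairs it was 0.1875.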
